A study of Homo sapiens with 6 samples.

Results

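The 10 genes described here encode the receptors that admit a Wnt signal into the cell, the chaperone that prepares a pair of these receptors, the effector behind them and its feedback products. They are MESD, LRP5, LRP6, LGR4, FZD2, FZD6, FZD7, CTNNB1, AXIN2 and DKK1. They were picked by symbol, with their values in these samples already known, and all 10 were found among the 30735 genes listed by Ensembl identifier. RNA-seq had been performed on PANC-1, a widely used line grown from a human pancreatic ductal adenocarcinoma, to ask which genes lie downstream of CD73. The 3 samples of the knockdown group were transfected with CD73 siRNA and the 3 samples of the control group with negative control, with the same lipid reagent and serum-free medium in both groups. The labels number the samples from 1 to 3 in each group but do not say whether the numbers mark separate cultures or different siRNA sequences. The paper describes separate knockdown experiments (n = 3) and gives 1 catalogue number for the CD73 siRNA. The spread between samples may in part be technical.

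Wnt proteins bind a Frizzled receptor together with LRP5 or LRP6 at the cell surface. The complex stops the degradation of β-catenin, which then enters the nucleus and switches on target genes with TCF/LEF factors. LRP5 and LRP6 reach the surface only after folding in the endoplasmic reticulum, where MESD is their dedicated chaperone. R-spondin bound to LGR4 removes the ubiquitin ligases ZNRF3 and RNF43, which otherwise clear Frizzled receptors from the surface. AXIN2 and DKK1 are induced by the pathway and dampen it, AXIN2 as a scaffold of β-catenin degradation and DKK1 as a secreted ligand of LRP5 and LRP6.

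The files hold RPKM, read numbers scaled to each gene's merged exons and each sample's sequencing total, and the whole-read steps in the values gave library totals between 15009113 and 16836208 reads or read pairs. NT5E, the gene of CD73, was at 3.36, 6.85 and 8.22 RPKM in CD73 siRNA replicates 1, 2 and 3 and at 13.96, 13.87 and 17.14 RPKM in the negative controls. It kept 41.0% of the control mean, a log2 fold change of -1.23 with a standard error of 0.26 and, in limma with Benjamini-Hochberg adjustment, an adjusted p of 0.303, and the exact permutation test gave 0.1, the smallest value that 3 samples against 3 allow. Of the markers set for other cells, those of leukocytes, endothelium and islets summed to at most 0.0765 RPKM in any sample, and no acinar marker was listed. The summed level of the 3 fibroblast markers was 8.97 to 16.17 RPKM after CD73 siRNA and 10.51 to 19.06 RPKM in the controls, nearly all of it COL1A1, with LUM at or below 0.0415 RPKM and DCN not listed, and its part in the results was not tested. The summed level of the 6 epithelial markers was 71.4 to 102.1 RPKM after CD73 siRNA and 135.8 to 253.5 RPKM in the controls, led by KRT8 and KRT18, and its part in the results was not tested. The groups of KRT8 and KRT18 did not overlap (18.4% of all tested genes), while those of KRT19, EPCAM, CDH1 and KRT7 did. KRT19 was at 3.595 to 3.865 RPKM after CD73 siRNA and 3.832 to 5.391 RPKM in the controls. EPCAM was at 0.80 to 1.61 and 0.58 to 1.71 RPKM, and CDH1 at 0.43 to 1.43 and 0.42 to 1.69 RPKM. KRT7 stayed at or below 0.107 RPKM. VIM, a mesenchymal filament protein, was at 182.9 to 263.0 RPKM in all 6 samples. In bulk RNA, a lower level per cell and fewer expressing cells cannot be told apart.

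MESD was the gene among the 10 whose groups separated. It was at 9.60, 7.87 and 9.19 RPKM in CD73 siRNA replicates 1, 2 and 3, and at 4.21, 4.56 and 4.71 RPKM in negative control replicates 1, 2 and 3. Every knockdown sample was above every control, and the controls lay within a narrow band. MESD averaged 8.89 ± 0.91 RPKM after CD73 siRNA and 4.49 ± 0.26 RPKM in controls (SD, n = 3 each), and the former mean was 198% of the latter. The difference in log2(RPKM + 1) was 0.84 (standard error 0.11), and within replicates 1, 2 and 3 it was 1.02, 0.67 and 0.84. These values came from 507 to 1162 reads per sample.

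Changed genes were counted at an unadjusted p below 0.01, by limma's test. MESD was the 1 member of the 9 tested that passed, as a higher gene. Of all 12527 tested genes, 3.13% passed in either direction and 1.82% as higher genes. At a Benjamini-Hochberg adjusted p below 0.05 in limma's test, 0 of the 9 members passed, MESD included, and 1 of all tested genes. The groups of MESD were also the 1 pair without overlap among the 9, against 18.4% of all tested genes in either direction. It passed as a higher gene in the fit with a block for the replicate number too, beside 4.27% of all tested genes. Within the 3 replicate numbers, 8 of the 9 kept the sign of their difference, beside 51.4% of all tested genes, and FZD2 did not. Some of the kept signs rest on small differences in log2(RPKM + 1). They were -0.0007 for FZD7 and -0.0039 for LGR4 in replicate 2, and 0.0063 for CTNNB1 in replicate 3. Since the genes were chosen with these values known, the counts describe the group and test nothing. The 9 genes reached 1 RPKM in 3 or more samples, and the gene left out was AXIN2.

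**Figure D1:**
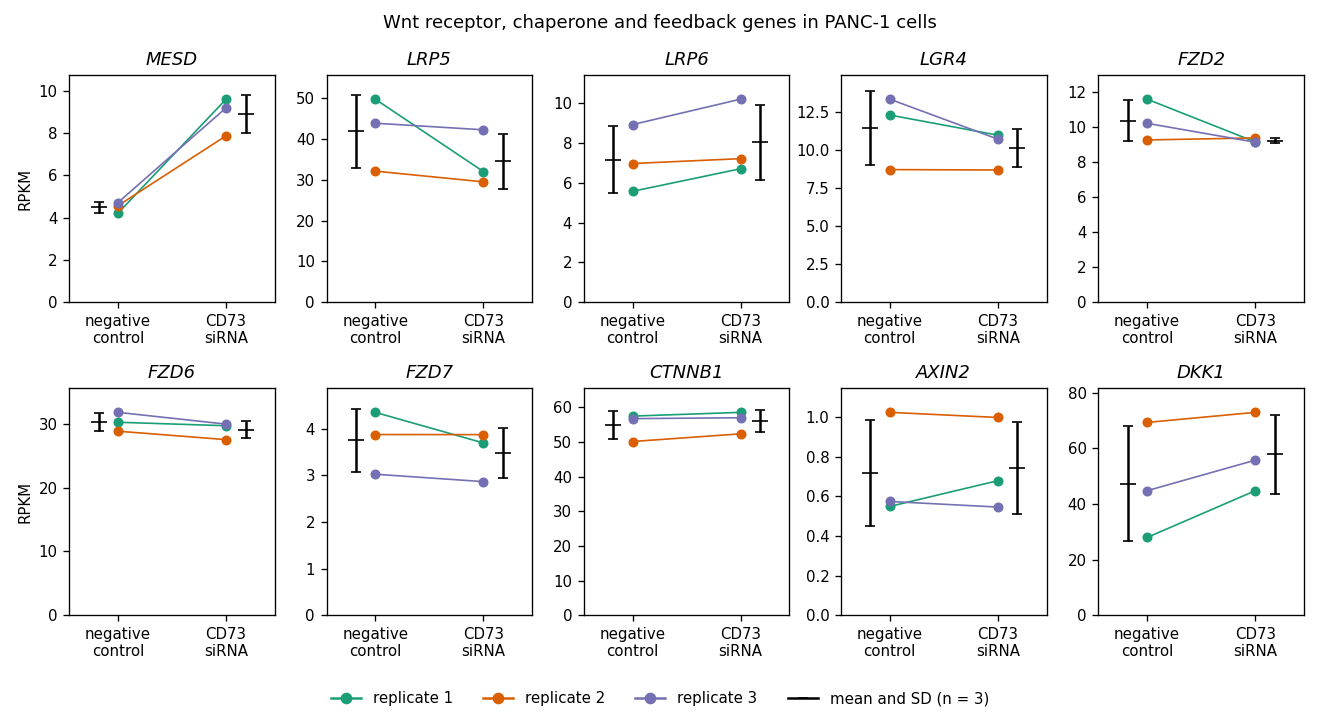
RPKM of the 10 genes in each sample, with the control at the left and CD73 siRNA at the right of each panel. Points are samples, lines join samples that carry the same replicate number, and black bars are the mean and SD (n = 3). MESD lies between 4.21 and 4.71 RPKM in the controls and between 7.87 and 9.60 RPKM after CD73 siRNA, while the groups of the other 9 genes overlap.

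The groups of LRP5 and LRP6, the clients of MESD, overlapped. LRP5, the more abundant of the coreceptors, was at 32.06, 29.53 and 42.31 RPKM in CD73 siRNA replicates 1, 2 and 3 and at 49.84, 32.17 and 43.93 RPKM in the controls. Control replicate 1 was the highest sample and CD73 siRNA replicate 2 the lowest, and the other 4 lay between them. The difference in log2(RPKM + 1) was -0.26 (standard error 0.19), and within replicates 1, 2 and 3 it was -0.62, -0.12 and -0.05. Most of the mean difference thus lay between the samples numbered 1, and without negative control replicate 1 it was -0.13.

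LRP6, the closely related coreceptor, was at 6.70, 7.21 and 10.20 RPKM after CD73 siRNA and at 5.57, 6.96 and 8.92 RPKM in the controls. In both groups replicate 3 was the highest and replicate 1 the lowest, and the spread within each group was wider than the gap between them. LRP6 differed by 0.15 in log2(RPKM + 1) (standard error 0.19), and by -0.02 without CD73 siRNA replicate 3. LRP5 made up 80.4% to 90.0% of the summed RPKM of LRP5 and LRP6 over the 6 samples. Read against this sum, MESD amounted to 24.8, 21.4 and 17.5 per 100 RPKM of LRP5 plus LRP6 in CD73 siRNA replicates 1, 2 and 3. In the controls it amounted to 7.60, 11.7 and 8.91 per 100 RPKM. The means of this mRNA ratio were 21.2 ± 3.6 and 9.39 ± 2.07 (SD, n = 3 each), and it was computed from the same values that separated MESD itself.

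**Figure D2:**
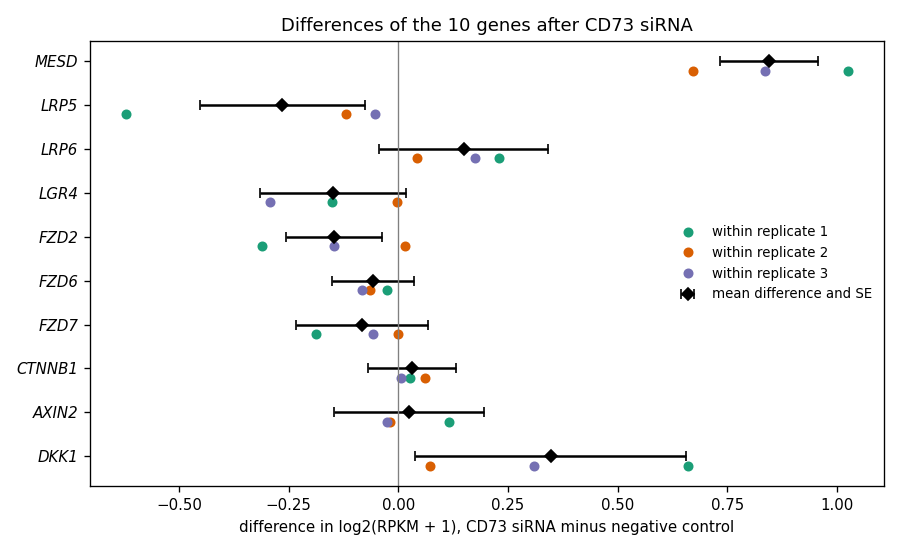
Difference in log2(RPKM + 1), CD73 siRNA minus negative control, for each of the 10 genes. Diamonds and bars are the mean difference and its standard error from limma, and colored points are the differences within replicates 1, 2 and 3. MESD stands at 0.84, and the other 9 genes lie between -0.26 (LRP5) and 0.35 (DKK1).

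The Frizzled receptors bind the Wnt ligand itself, and FZD6, FZD2 and FZD7 were the members of this family examined in detail. FZD6 was at 29.70, 27.52 and 29.95 RPKM in CD73 siRNA replicates 1, 2 and 3 and at 30.25, 28.85 and 31.80 RPKM in the controls. These ranges overlapped in part, with a difference in log2(RPKM + 1) of -0.06 (standard error 0.09) and 1761 to 2050 reads per sample. FZD6 supplied 49.2% to 56.4% of the RPKM summed over FZD1 to FZD10. The sum itself was 52.07 ± 1.86 RPKM after CD73 siRNA and 57.95 ± 4.49 RPKM with negative control (SD, n = 3 each).

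FZD2 was at 9.16, 9.39 and 9.14 RPKM after CD73 siRNA and at 11.60, 9.27 and 10.22 RPKM in the controls. The knockdown samples were nearly equal and the controls spread around and above them, so the groups met at control replicate 2. FZD2 had a difference in log2(RPKM + 1) of -0.15 (standard error 0.11). FZD7, a close relative of FZD2, was the scarcest of these receptors, at 3.69, 3.87 and 2.86 RPKM after CD73 siRNA and 4.35, 3.87 and 3.02 RPKM in the controls. In both groups replicate 3 was the lowest sample. FZD7 had a difference in log2(RPKM + 1) of -0.08 (standard error 0.15), from 175 to 269 reads per sample. How reads shared by similar Frizzled genes were treated is not given in the sources used here.

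LGR4, the R-spondin receptor, was at 10.98, 8.69 and 10.72 RPKM in CD73 siRNA replicates 1, 2 and 3 and at 12.30, 8.71 and 13.35 RPKM in the controls. Replicate 2 was the lowest sample of both groups, with almost the same value in each. The difference in log2(RPKM + 1) was -0.15 (standard error 0.17), and within replicates 1, 2 and 3 it was -0.15, -0.0039 and -0.29.

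CTNNB1, which encodes β-catenin, had the highest control mean of the 10 genes. It was at 58.57, 52.37 and 57.02 RPKM after CD73 siRNA and at 57.49, 50.16 and 56.76 RPKM in the controls. The samples paired off by replicate number more closely than by treatment. Their means differed by 0.03 in log2(RPKM + 1) (standard error 0.10). These are mRNA levels, and β-catenin is regulated largely through the stability of the protein, which was not measured.

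The feedback genes differed in level by far more than they differed between groups. AXIN2 was at 0.68, 0.997 and 0.55 RPKM in CD73 siRNA replicates 1, 2 and 3 and at 0.55, 1.02 and 0.57 RPKM in the controls, from 45 to 83 reads per sample. Replicate 2 was the highest sample of both groups. The difference in log2(RPKM + 1) was 0.02 (standard error 0.17), taken from the fit without a filter on low values, and a difference at this level is understated by the added 1.

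DKK1 was at 44.78, 72.95 and 55.76 RPKM in CD73 siRNA replicates 1, 2 and 3 and at 27.98, 69.33 and 44.79 RPKM in the controls. It had the widest spread of the 10 genes in relation to its level among the controls, with replicate 2 the highest and replicate 1 the lowest sample in both groups. Each knockdown sample was above the control with the same number, by 0.66, 0.07 and 0.31 in log2(RPKM + 1) for replicates 1, 2 and 3. Over the groups the difference was 0.35 (standard error 0.31), and without negative control replicate 1 it was 0.02. The groups overlapped, although control replicate 1 lay below every knockdown sample and CD73 siRNA replicate 2 above every control. A block for the replicate number lowered the standard error to 0.12, and DKK1 did not pass the threshold in that fit either.

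DKK1 was the 1 member, of the 5 whose promoter is in the RefSeq table used here (GRCh38.p14), with a TCF/LEF-type match. The letters searched were CTTTGAA and CTTTGAT on both strands, in 250 bases before and 50 after the start of the gene, and 6.86% of all 35116 promoters in the table held at least 1 of them. The 30 bases around the match are shown because they carry the letters that β-catenin's partner factors are known to bind. They lie on the forward strand at chr10:52314175-52314204, with the matched letters, in capitals, beginning 95 bases before the start.
DKK1 promoter: ccctcccagcgCTTTGAAatcccatcccgg
The promoters of MESD, LRP5, LGR4 and CTNNB1 were searched in the same way and held no match in this window. A match of letters says nothing about binding in these cells.

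In the controls the order of the 10 genes by mean RPKM was CTNNB1, DKK1, LRP5, FZD6, LGR4, FZD2, LRP6, MESD, FZD7 and AXIN2. The range of DKK1 overlapped those of CTNNB1, LRP5 and FZD6, and overlaps were also found between the ranges of LGR4 and FZD2, of LGR4 and LRP6, and of MESD and FZD7. The ranges of CTNNB1 and LRP5, LRP5 and FZD6, FZD6 and LGR4, FZD2 and LRP6, LRP6 and MESD, and FZD7 and AXIN2 did not meet. In knockdown cells MESD moved from rank 8 to rank 7, past LRP6. Its range of 7.87 to 9.60 RPKM then lay within that of LRP6 (6.70 to 10.20 RPKM) and no longer met that of FZD7 (2.86 to 3.87 RPKM).

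MESD (ENSG00000117899) lies on the reverse strand of chromosome 15, from 80946289 to 80989878 in GRCh38 (GENCODE release 29), with 7510 bases of merged exons. Its end overlaps CEMIP, a gene on the opposite strand that encodes a hyaluronan-degrading protein. CEMIP was at 0.318, 0.267 and 0.234 RPKM after CD73 siRNA and at 0.0818, 0.118 and 0.245 RPKM in the controls. AC027808.1, annotated on the same strand as MESD, also overlaps it and was not among the listed genes. Whether the counting used strand is not given in the sources used here, so how reads from the overlaps were counted is not known. The next protein-coding genes, outside the span of MESD, went the other way from MESD. ABHD17C, a depalmitoylase gene ending 190667 bases before MESD, was at 4.49, 4.15 and 4.50 RPKM after CD73 siRNA and at 7.79, 5.27 and 7.02 RPKM in the controls. It fell by 0.50 on the log2(RPKM + 1) scale (standard error 0.14), with an adjusted p of 0.305 in limma. It passed the unadjusted threshold as a lower gene, beside 1.31% of all tested genes. It stayed past the threshold without negative control replicate 2, but not when any of the other 5 libraries was left out, where its difference was between -0.52 and -0.40. TLNRD1, an actin-bundling talin-like gene 11065 bases on the other side, was at 5.74, 5.47 and 5.002 RPKM and at 9.47, 6.61 and 6.28 RPKM. Its difference of -0.38 (standard error 0.15, adjusted p = 0.384 in limma) did not pass the unadjusted threshold. It did pass once replicate number entered as a block (adjusted p = 0.132 in limma), where 7.57% of all tested genes passed, 3.3% as lower.

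**Figure D3:**
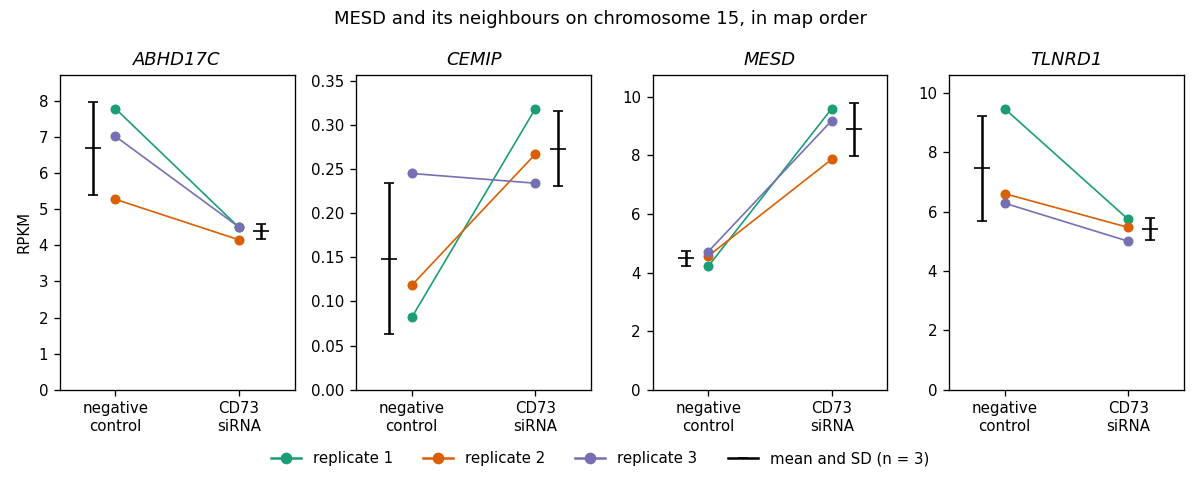
RPKM of ABHD17C, CEMIP, MESD and TLNRD1, in their order along chromosome 15, with the control at the left and CD73 siRNA at the right of each panel. Points are samples, lines join the same replicate number, and black bars are the mean and SD (n = 3). MESD was higher in all 3 knockdown samples, and ABHD17C and TLNRD1 were lower in all 3. CEMIP was higher after CD73 siRNA within replicates 1 and 2 and lower within replicate 3, and stayed at or below 0.318 RPKM.

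The rest of the pathway was read from a list of Wnt genes arranged by role, of which 91 were in the files and 56 passed the filter. In limma's test, 0 of the 56 were higher and 2 were lower at an unadjusted p below 0.01, beside 1.82% and 1.31% of all tested genes. At an unadjusted p below 0.05 there were 4 higher and 5 lower genes, beside 7.22% and 4.9% of all tested genes. A linear model per gene without moderation called 0 higher and 1 lower, beside 0.95% and 0.774% of all tested genes. The median difference in log2(RPKM + 1) was -0.02 for the list and 0.01 for all tested genes. The list's groups did not overlap in 6 higher and 4 lower genes, beside 10.3% and 8.07% of all tested genes.

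The pair that passed was FZD5, a further Frizzled receptor, and CCND1, the cyclin D1 gene. FZD5 was at 2.50, 2.62 and 2.90 RPKM in CD73 siRNA replicates 1, 2 and 3 and at 4.87, 3.72 and 4.62 RPKM in the controls. It fell by 0.55 on the log2(RPKM + 1) scale (standard error 0.13, adjusted p = 0.303 in limma), and all 3 knockdown samples lay below all 3 controls. Without CD73 siRNA replicate 1 its difference was -0.52 and no longer passed, and the same held without negative control replicate 3. CCND1, which many pathways besides Wnt regulate and which was known to be lower in these samples, was at 75.46, 76.90 and 72.10 RPKM against 180.2, 103.7 and 129.0 RPKM. It fell by 0.83 on the same scale (standard error 0.18, adjusted p = 0.303 in limma), and it did not pass without moderation across genes.

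**Figure D4:**
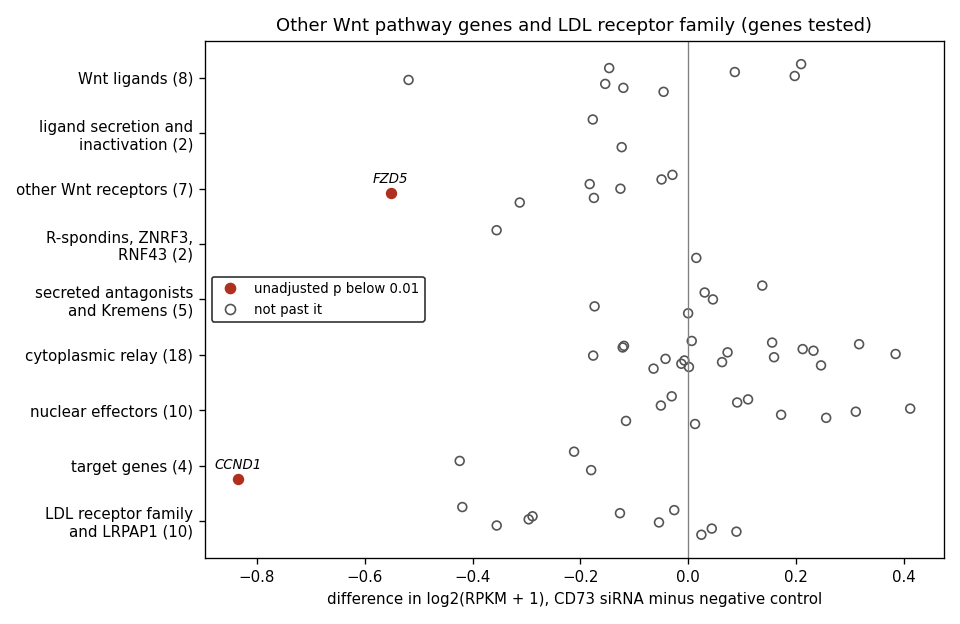
Difference in log2(RPKM + 1), CD73 siRNA minus negative control, of the tested genes in each role, with the number tested in brackets. Each circle is a gene, and filled circles passed limma's test at an unadjusted p below 0.01. FZD5 (-0.55) and CCND1 (-0.83) are the filled circles. The other Wnt receptors and the target genes all lie below 0, as do 6016 of all 12527 tested genes.

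Of the 19 Wnt ligands, 8 were tested and 0 passed, with 1 lower gene at an unadjusted p below 0.05 (4.9% of all tested genes). WNT7B was the most abundant, at 11.63 to 14.33 RPKM in knockdown samples and 13.95 to 14.74 RPKM in controls, and made up 35.2% to 43.8% of the summed ligand RPKM. WNT9A had a difference in log2(RPKM + 1) of 0.21 (standard error 0.17) and WNT5B of 0.20 (standard error 0.22). The summed ligand level was 35.16 ± 2.52 RPKM after CD73 siRNA and 36.59 ± 3.53 RPKM with negative control (SD, n = 3 each). Of the 3 genes for ligand secretion and inactivation, 2 were tested and 0 passed. PORCN, the acyltransferase that lipid-modifies Wnt proteins, had a difference of -0.18 (standard error 0.12), and NOTUM, which removes that lipid, of -0.12 (standard error 0.18). WLS, the carrier of Wnt proteins to the surface, was under the filter, at 0.82, 0.85 and 1.65 RPKM after CD73 siRNA and 0.80, 0.89 and 2.04 RPKM in the controls, with replicate 3 the highest in both groups.

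All 7 tested genes among the 13 other Wnt receptors had negative differences, beside 6016 of all 12527 tested genes. Of the 7, FZD5 alone passed the threshold. PTK7, a pseudokinase coreceptor, was the most abundant, with a difference in log2(RPKM + 1) of -0.18 (standard error 0.14). RYK, a receptor related to tyrosine kinases, had a difference of -0.03 (standard error 0.11). LGR5, a stem cell relative of LGR4, was at or below 0.0119 RPKM in every sample. Of the R-spondins and their ubiquitin ligases, 2 of 6 were tested and 0 passed. ZNRF3, the ligase that LGR4 holds in check, was at 2.53, 3.31 and 3.81 RPKM after CD73 siRNA and at 4.18, 4.11 and 4.78 RPKM in the controls. Its groups did not overlap, with a difference of -0.36 (standard error 0.14, adjusted p = 0.384 in limma) that did not pass the threshold. RNF43, its relative, was at or below 0.0475 RPKM throughout, and RSPO4 had a difference of 0.01 (standard error 0.15). RSPO2 was under the filter, at or below 0.197 RPKM.

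Of the 10 secreted antagonists and Kremens in the files, 5 were tested and 0 passed. KREMEN2, the DKK1 coreceptor, had a difference in log2(RPKM + 1) of 0.05 (standard error 0.14), DKK3, another Dickkopf protein, of -0.00031 (standard error 0.18) and SFRP5, a decoy for Wnt proteins, of 0.14 (standard error 0.30). All 18 genes of the cytoplasmic relay were tested and 0 passed, with 2 higher genes at an unadjusted p below 0.05 (7.22% of all tested genes). DVL1, which carries the signal from Frizzled, had a difference of 0.07 (standard error 0.12). FBXW11, a ubiquitin ligase subunit for β-catenin, had -0.12 (standard error 0.09) and CSNK1A1, a kinase that primes β-catenin for degradation, 0.06 (standard error 0.18). Of the 13 nuclear effectors, 10 were tested and 0 passed, with 2 higher genes at an unadjusted p below 0.05, beside the same 7.22%. PYGO2, a β-catenin coactivator, was at 20.08, 16.94 and 18.87 RPKM after CD73 siRNA and 13.26, 16.20 and 15.07 RPKM in the controls, a difference of 0.31 (standard error 0.11, adjusted p = 0.363 in limma). BCL9L, another coactivator, had -0.12 (standard error 0.14) and TLE1, a corepressor, 0.09 (standard error 0.14).

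The 9 target genes held 4 tested ones, all with negative differences (6016 of all 12527 tested genes), of which CCND1 passed. MYC was at 33.85, 49.05 and 38.20 RPKM after CD73 siRNA and at 57.09, 58.52 and 46.73 RPKM in the controls. Its difference in log2(RPKM + 1) was -0.42 (standard error 0.15, adjusted p = 0.361 in limma), and its groups overlapped. It passed the unadjusted threshold without CD73 siRNA replicate 2, and also when a block for replicate number was fitted (adjusted p = 0.123 in limma), where 3.3% of all tested genes passed as lower. CD44, a surface glycoprotein, had a difference of -0.18 (standard error 0.17). As given above, the feedback genes AXIN2 and DKK1 had differences of 0.02 and 0.35.

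The LDL receptor family, to which LRP5 and LRP6 belong, was examined with LRPAP1, its other dedicated chaperone. Of these 13 genes 10 were tested, and limma's test called 0, with 0 higher and 2 lower genes at an unadjusted p below 0.05, beside 7.22% and 4.9% of all tested genes. The model without moderation also called 0, beside 0.95% of all tested genes as higher and 0.774% as lower. The median difference in log2(RPKM + 1) was -0.09, beside 0.01 for all tested genes. LRPAP1 was at 11.46, 12.10 and 12.93 RPKM after CD73 siRNA and 12.11, 13.12 and 11.97 RPKM in the controls, a difference of -0.03 (standard error 0.10). LRP11, a family member of little studied function, had the highest mean RPKM of the list. It was at 42.92, 35.97 and 34.91 RPKM against 55.75, 43.91 and 46.88 RPKM, so that the groups did not overlap, with a difference of -0.36 (standard error 0.13, adjusted p = 0.357 in limma). LRP10 had a difference of 0.04 (standard error 0.18). With the replicate number as a block, 2 of the 10 passed the unadjusted threshold as lower, beside 3.3% of all tested genes in that fit. They were LRP11 and the sorting receptor gene SORL1 (difference -0.42, standard error 0.10 and adjusted p = 0.119 in that limma fit). SORL1 was singled out after its values were seen.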

How the data were processed

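Per the labels, reads were handled by the authors with bcl2fastq, Bowtie2 2.2.3 and HTSeq 0.6.0 on hg38, and the annotation and use of strand are not given in the sources used here. The authors deposited a table per sample whose values, in a unit the labels leave out, are read here as RPKM: multiplied by the merged exon length in GENCODE release 29, 95.5% to 95.6% of the values worth fewer than 1000 reads were whole numbers of reads (within 0.05). The same step gave the library totals and the reads behind each value, which describe precision and were not tested. Coordinates are those of release 29 (GRCh38, the build of hg38), and symbols came from the supplied name table, which lacked 351 of the 30735 identifiers.

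Genes reaching 1 RPKM in 3 or more samples were compared on log2(RPKM + 1), a scale that understates the changes of low genes, by limma 3.58.1 under R 4.3.3 (trended eBayes), with p-values adjusted after Benjamini and Hochberg. The threshold for counting was an unadjusted p below 0.01, and no set test was run. The script was tested on simulated data. Deviations from the group means correlated at 0.20, 0.48 and 0.55 between same-numbered samples 1, 2 and 3. Between samples of different number they correlated at -0.44 to -0.0064. The numbers of the labels were therefore taken to pair the samples, least clearly for number 1, and the fit with the number as a block was the alternative. The members, lists and tests were chosen with earlier results of these data known. Genes named besides the members were, for each role, those past the threshold and the 3 with the highest mean RPKM, the neighbors of MESD and the 3 genes most like it. DKK4, SFRP2 and SOSTDC1 were on the list and were not analysed here. Other genes in the text were named after their values were seen.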

Additional observations from a re-analysis of the deposited data

How the results depend on the processing

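The fit with the replicate number as a block took equal numbers to pair the samples, which the labels do not state. It called 948 genes in place of 392, and 2 of the LDL receptor family in place of 0. It changed no call among the 10 genes. The count over all genes was 216 without moderation and 1 at an adjusted p below 0.05, a gene outside the 10. Leaving out single samples gave 116 to 792 genes. It was 116 without CD73 siRNA replicate 1, and for negative control replicates 1, 2 and 3 it was 188, 792 and 258. For the Wnt list the count of 2 became 1 with the filter at 5 RPKM and without moderation, 0 at an adjusted p below 0.05, and 1 to 3 with single samples left out, the 1 without CD73 siRNA replicate 1 or negative control replicate 3. For the LDL receptor family the range was 0 to 2, the 2 without negative control replicate 2. NT5E no longer passed without moderation, at a difference in log2(RPKM + 1) of -1.23. MESD moved to 0.96 with a pseudocount of 0.1, and was 0.79 to 0.92 with single samples left out. With single samples left out, LRP6, FZD7, CTNNB1 and AXIN2, which never passed, took either sign. Median-ratio scaling moved the median of all genes from 0.01 to -0.0013 and changed no count by over 1.5 times. FZD7 and AXIN2 gave no value at the filter of 5 RPKM. For the other genes named, 375 of 396 alternative values stayed on their side of the threshold, and none that passed changed sign. Depth limited AXIN2 most, with 45 to 83 reads per sample. The causes of these shifts were not tested.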

Other observations

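The genes whose levels over the 6 samples were most like those of MESD, among 7393 genes with a mean of at least 5 RPKM, were RNASEH2C, TUBA1C and STK35. Pearson's r on log2(RPKM + 1) was 0.995, 0.990 and 0.988, given as a description, since 48 of these genes had an r above 0.95 and the 6 points share libraries and replicate numbers. RNASEH2C, a subunit of the nuclease that removes RNA from DNA, was at 11.41, 10.81 and 11.39 RPKM in CD73 siRNA replicates 1, 2 and 3 and at 9.58, 9.88 and 9.82 RPKM in the controls. TUBA1C, an α-tubulin with near-identical relatives that can share reads, had a group mean of 52.55 ± 2.45 RPKM after CD73 siRNA and 43.63 ± 1.30 RPKM in controls (SD, n = 3 each). STK35, a kinase gene, had 11.34 ± 0.60 and 9.17 ± 0.10 RPKM. TUBA1C and STK35 had the 6 samples in the same order as MESD, and RNASEH2C differed from it in the order of the controls. The differences of RNASEH2C, TUBA1C and STK35 were smaller, 0.18, 0.26 and 0.28 in log2(RPKM + 1) beside 0.84 for MESD. None passed the unadjusted threshold in limma's test with the filter at 1 RPKM. Without moderation each of them passed, beside 0.95% of all tested genes as higher. Without the filter TUBA1C and STK35 passed in limma's test, beside 270 higher genes of 30735.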
